A study of Mus musculus with 12 samples.

Results

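The genes described here are 10 of the Notch pathway, namely the receptors Notch1, Notch2, Notch3 and Notch4, the ligands Dll1 and Jag1, and the target genes Hes1, Hes5, Hey1 and Hey2. They were found by gene symbol in each deposited table, where they are 10 of 21878 genes. RNA was sequenced from hippocampus of mice in which both presenilins were conditionally knocked out (called DKO in the labels) and of wild-type (WT) mice, at a time labelled Day or Night; the hours of killing were 9 a.m. and 9 p.m. There were 4 groups of 3 libraries, Day DKO, Day WT, Night DKO and Night WT, 12 libraries in all. All mice had been anaesthetised with pentobarbital. Neither the labels nor the series text state the driver of the conditional deletion, the cells in which it acts, or the age, sex and background strain of the mice.

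Notch receptors are membrane proteins that, after a ligand on a neighbouring cell binds them, are cut by an ADAM protease and then, within the membrane, by gamma-secretase. The presenilins are alternative catalytic subunits of gamma-secretase. The cut frees the intracellular domain of the receptor, which joins the DNA-binding protein RBPJ and a Mastermind protein in the nucleus and turns on genes of the Hes and Hey families of transcriptional repressors. In the adult hippocampus the pathway is known for keeping neural stem cells of the dentate gyrus undivided, for signalling between endothelium and the mural cells of vessels, and for a role in astrocytes and in neurons.

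The Hes and Hey genes are where the pathway acts on DNA, so stretches before or across 2 of their start sites are shown. They were searched for the RBPJ core motif GTGGGAA on both strands. They come from RefSeq on build GRCm38.p6, in windows of 300 bases from 250 before to 50 after a start site, some genes having further windows. Of the 10 genes 8 had such a window, and none was used for Hes1 and Hey1. Capitals mark the matches, TTCCCAC being GTGGGAA on the other strand. The Hes5 stretch lies at chr4:154960673-154960886 on the plus strand, and the Hey2 stretch at chr10:30842781-30843020 on the minus strand, both written 5′ to 3′ on the strand of the gene.
Hes5: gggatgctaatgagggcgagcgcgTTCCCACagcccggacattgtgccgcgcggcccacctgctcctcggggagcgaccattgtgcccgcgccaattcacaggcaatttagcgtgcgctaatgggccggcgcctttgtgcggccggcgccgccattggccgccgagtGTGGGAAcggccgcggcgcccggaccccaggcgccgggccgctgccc
Hey2: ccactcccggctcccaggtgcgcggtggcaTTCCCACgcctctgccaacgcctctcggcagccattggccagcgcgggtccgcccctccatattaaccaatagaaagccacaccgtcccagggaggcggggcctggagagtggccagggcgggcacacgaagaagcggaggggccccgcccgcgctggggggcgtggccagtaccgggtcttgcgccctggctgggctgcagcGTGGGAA
Each of the 2 genes held 2 matches, whose first bases stood 226 and 83 bases before the start site in Hes5 and 207 and 4 bases before it in Hey2. As the motif is 7 bases long, the second Hey2 match runs across the start site. The Hes5 window is set on a start site that lies inside the full extent of the gene in RefSeq, which begins at 154960626 and takes in a transcript that starts farther upstream. The motif stood in 6.38% of all 32851 windows and in 7.25% of the 27025 genes with a window. The shorter core TGGGAA, which lies inside GTGGGAA, was in 25.6% of windows and, among the 8 genes, in the same 2. Hes and Hey proteins bind E-box and N-box motifs: CACGTG (7.15% of windows) was in none of the 8, CACGCG (9.27%) was in Notch2, Dll1 and Jag1, and CACNAG (42.5%) was in Notch1, Notch2, Notch3 and Dll1. These matches describe letters in a window and are not evidence of binding.

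Levels were taken to be FPKM from how the values behave, as no unit is given. FPKM are fragment numbers corrected for transcript length and for the size of the library. On that reading genes may be compared with one another. The libraries summed to 151059 to 175692 FPKM. The commonest ratio of low values to those of Day WT replicate 1 put relative depth at 0.911 to 1.06. In the other libraries that ratio held a share of just 0.0208 to 0.101 of the genes compared, so these depths are rough. The hippocampal neuron markers Slc17a7 (159 to 218 FPKM), Camk2a (132 to 162), Wfs1 (18.3 to 26.1) and Prox1 (3.47 to 5.73) were present in all 12 libraries. Night WT replicate 1 stood apart in 4 Y-linked genes, which summed to 0.0308 FPKM there and to 14.1 to 18.1 FPKM in each of the other 11 libraries. Day DKO replicate 2 stood apart in choroid plexus markers, as given below. Differences were tested with limma on log2(FPKM + 1) over the 12689 genes with at least 0.5 FPKM in at least 3 libraries, and a gene was called at an adjusted p under 0.05. Whether the libraries of a group come from different mice is not stated, so the p-values speak of the spread among these libraries, which may be technical.

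The presenilin gene Psen2, a target of the knockout, fell in DKO libraries at both times. Psen2 (gene ID 19165) stood at 0.520, 0.378 and 0.275 FPKM in Day DKO libraries, against 1.67, 1.47 and 2.87 FPKM in Day WT libraries. At night it stood at 0.486, 0.351 and 0.594 FPKM in DKO libraries, against 3.55, 2.94 and 3.64 FPKM in WT libraries. The groups were far apart at both times, with a difference in log2(FPKM + 1) of -1.08 by day (limma adjusted p = 0.00982) and -1.57 at night (limma adjusted p = 0.000785). With a pseudocount of 0.1 in place of 1 the differences of Psen2 were -2.07 by day and -2.61 at night, and the ratio of mean FPKM was 0.196 by day and 0.141 at night. The tables give 1 value per gene, so a deleted exon cannot be seen apart from the rest of its gene.

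All 10 genes passed the filter on low values. Hey1 was the most abundant at a mean of 10.8 FPKM over the 12 libraries, followed by Notch2 (4.67), Hes1 (3.53), Hes5 (3.32), Notch1 (2.72), Notch3 (1.24), Hey2 (1.14), Dll1 (1.06), Jag1 (0.765) and Notch4 (0.615). Among neighbours in that order, Hey1 exceeded Notch2, Notch1 exceeded Notch3, and Dll1 exceeded Jag1 in all 12 libraries. Notch2 exceeded Hes1 in 11 libraries and Jag1 exceeded Notch4 in 11. Hes1 over Hes5, Notch3 over Hey2 and Hey2 over Dll1 held in 8 libraries each and Hes5 over Notch1 in 9, so these neighbours were not separated beyond the spread of the libraries. Hes5 varied most, 2.30-fold between its highest and lowest library, and Notch1 least, 1.48-fold. The spread within groups in log2(FPKM + 1) (pooled SD) was 0.250 for Hes5 and 0.160 for Hey1, against a median of 0.0960 over all genes tested, and 0.0716 for Dll1, the smallest of the 10. This scale narrows the spread of genes near or under 1 FPKM, such as Dll1, Jag1 and Notch4. The median is over genes of all levels, so it does not show that Dll1 was steadier than genes of its own level.

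**Figure D1:**
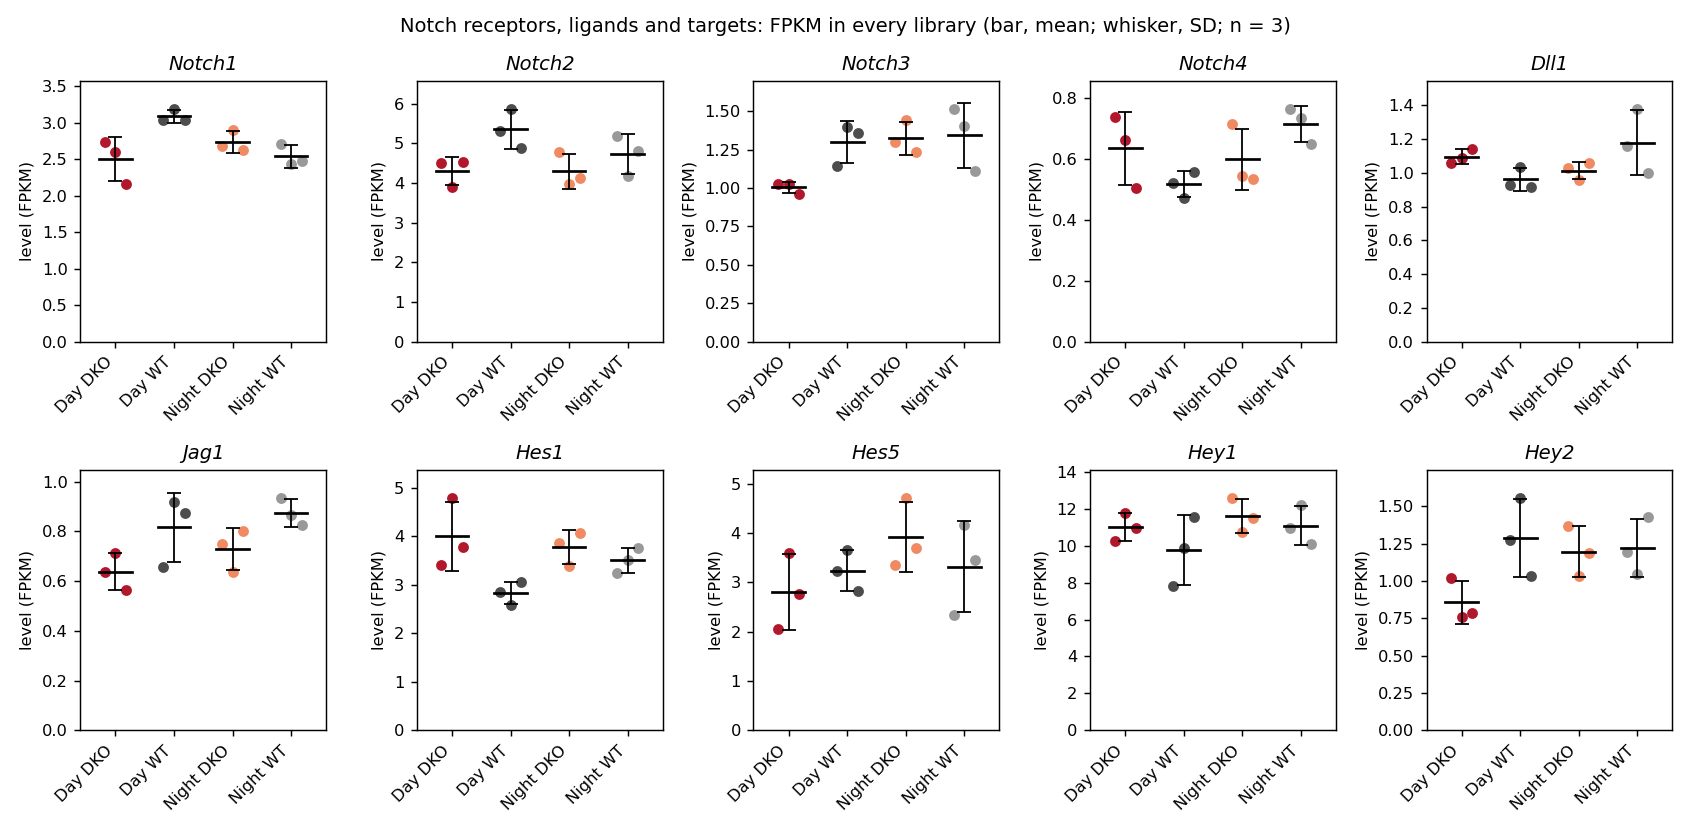
FPKM of the 10 Notch genes (vertical axes, each from 0) in the 3 libraries of Day DKO, Day WT, Night DKO and Night WT; points are libraries, bars means and whiskers SD. By day the DKO points of Notch1, Notch2, Notch3 and Hey2 lie below all WT points and those of Dll1 and Hes1 above them, while at night only Jag1 separates.

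None of the 10 genes was called between DKO and WT at either time. By day 1.18% of all genes tested were called (150 genes), and at night 0.0236% (3 genes). The day count was 14 to 85 genes without Day DKO replicate 2 or 3, Day WT replicate 1 or 2, or Night WT replicate 3, and the night count 5 to 38 without Night DKO replicate 1, Day DKO replicate 2 or Day WT replicate 1. At an unadjusted limma p under 0.05, the 10 genes gave 5 by day, Hes1 higher and Notch1, Notch2, Notch3 and Hey2 lower in DKO, where 17% of all genes passed (11.9% higher and 5.12% lower). At night they gave 0, where 9.18% of all genes passed (3.78% higher and 5.4% lower). The libraries did not overlap by day for Notch1, Notch2, Notch3 and Hey2, which were lower, a pattern that 5.26% of all genes showed, and for Dll1 and Hes1, which were higher, as were 14.3% of all genes. At night Jag1 alone of the 10 did not overlap and was lower, a pattern shown by 9.48% of all genes, and 0 of the 10 were separated and higher, against 5.73% of all genes. The median difference over the 10 genes was -0.16 by day, against 0.04 over all genes tested, and -0.01 at night, also -0.01 over all genes.

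Of the receptors, 3 of 4 were lower in Day DKO hippocampus, by amounts that did not pass the test. Notch1 (chromosome 2, 26457902 to 26503822), the receptor best known from neural stem cells, stood at 2.74, 2.61 and 2.16 FPKM in Day DKO libraries, against 3.03, 3.19 and 3.04 FPKM in Day WT libraries. In the night libraries it stood at 2.68, 2.90 and 2.63 FPKM in DKO, against 2.71, 2.43 and 2.48 FPKM in WT. Day WT was high and the other 3 groups lay together, without overlap by day and with overlap at night. The difference in log2(FPKM + 1) was -0.23 by day (95% interval -0.38 to -0.08; limma adjusted p = 0.135) and 0.08 at night (-0.07 to 0.23; adjusted p = 0.788). Notch2 (chromosome 3, 98013538 to 98150367), a receptor of stem cells and glia, stood at 4.51, 3.91 and 4.52 FPKM in Day DKO libraries, against 5.31, 5.87 and 4.90 FPKM in Day WT libraries. Night DKO libraries had 4.79, 3.97 and 4.13 FPKM of Notch2, against 5.18, 4.18 and 4.80 FPKM in Night WT libraries. It was lower in DKO by day without overlap, and at night the ranges overlapped. The differences were -0.26 by day (-0.45 to -0.07; limma adjusted p = 0.163) and -0.11 at night (-0.30 to 0.08; adjusted p = 0.751).

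Notch3 (chromosome 17, 32120820 to 32166896), the receptor of vascular smooth muscle and pericytes, stood at 1.03, 1.02 and 0.964 FPKM in Day DKO libraries, against 1.15, 1.40 and 1.36 FPKM in Day WT libraries. Night DKO libraries had 1.30, 1.44 and 1.23 FPKM of it, against 1.51, 1.40 and 1.11 FPKM in Night WT libraries. Day DKO alone was low, and the other groups overlapped one another. The difference was -0.20 by day (-0.36 to -0.03; limma adjusted p = 0.218) and -0.01 at night (-0.17 to 0.16; adjusted p = 0.988), the night value with the opposite sign under quantile normalization. Notch4 (chromosome 17, 34564286 to 34588543), an endothelial receptor, stood at 0.736, 0.662 and 0.503 FPKM in Day DKO libraries, against 0.522, 0.470 and 0.555 FPKM in Day WT libraries. At night Notch4 stood at 0.714, 0.543 and 0.535 FPKM in DKO libraries, against 0.763, 0.732 and 0.646 FPKM in WT libraries. Its ranges overlapped at both times. The differences were 0.11 by day (-0.05 to 0.27; limma adjusted p = 0.488) and -0.10 at night (-0.26 to 0.06; adjusted p = 0.727).

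Neither ligand passed the test at either time. Dll1 (chromosome 17, 15367354 to 15376932), a Delta-type ligand made by neuronal progenitors, stood at 1.06, 1.09 and 1.14 FPKM in Day DKO libraries, against 0.929, 1.04 and 0.918 FPKM in Day WT libraries. Night libraries had 1.03, 0.956 and 1.06 FPKM of Dll1 in DKO, against 1.16, 1.38 and 0.999 FPKM in WT. It was slightly higher in DKO by day without overlap, and the night ranges overlapped. The differences were 0.10 by day (-0.05 to 0.25; limma adjusted p = 0.504) and -0.11 at night (-0.26 to 0.04; adjusted p = 0.675). Jag1 (chromosome 2, 137081451 to 137116520), a Serrate-type ligand of endothelium, smooth muscle and glia, stood at 0.638, 0.714 and 0.564 FPKM in Day DKO libraries, against 0.658, 0.919 and 0.873 FPKM in Day WT libraries. The night values of Jag1 were 0.749, 0.639 and 0.803 FPKM in DKO libraries, against 0.936, 0.865 and 0.826 FPKM in WT libraries. It was lower in DKO at both times, with overlap by day through 1 WT library and without overlap at night. The differences were -0.15 by day (-0.31 to 0.01; limma adjusted p = 0.332) and -0.12 at night (-0.28 to 0.04; adjusted p = 0.673). Without Night WT replicate 1 the night difference of Jag1 was -0.09 (limma adjusted p = 0.921, of 0.556 to 0.947 over all settings tried).

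The 4 target genes had day estimates of both signs, and none passed the test. Hes1 (chromosome 16, 30065357 to 30067796), a repressor that holds back neuronal differentiation, stood at 3.41, 4.80 and 3.79 FPKM in Day DKO libraries, against 2.86, 2.58 and 3.06 FPKM in Day WT libraries. At night Hes1 stood at 3.88, 3.39 and 4.08 FPKM in DKO libraries, against 3.25, 3.51 and 3.77 FPKM in WT libraries. Day WT was the low group, without overlap with Day DKO, and the night groups overlapped. Mean Hes1 was 4.0 ± 0.718 FPKM in Day DKO and 2.83 ± 0.237 FPKM in Day WT (SD, n = 3 each), a ratio of 1.41. Its difference in log2(FPKM + 1) was 0.38 by day (0.17 to 0.58; limma adjusted p = 0.0837), the smallest adjusted p of the 10 genes, and 0.08 at night (-0.12 to 0.29; adjusted p = 0.851). Without Day DKO replicate 1, which was the lowest of its group, the day difference was 0.46 and was called (limma adjusted p = 0.0418), and over all settings tried its adjusted p ran up to 0.232, the value without Day DKO replicate 2.

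Hey2 (chromosome 10, 30832359 to 30842783), a repressor best known from arteries and heart, stood at 1.02, 0.761 and 0.786 FPKM in Day DKO libraries, against 1.27, 1.56 and 1.04 FPKM in Day WT libraries. In Night DKO libraries it stood at 1.37, 1.03 and 1.19 FPKM, against 1.19, 1.04 and 1.43 FPKM in Night WT libraries. Day DKO was the low group, just short of overlapping Day WT, and the night groups overlapped. Mean Hey2 was 0.856 ± 0.144 FPKM in Day DKO and 1.29 ± 0.261 FPKM in Day WT (SD, n = 3 each), a ratio of 0.665. The difference was -0.30 by day (-0.51 to -0.09; limma adjusted p = 0.157) and -0.02 at night (-0.23 to 0.20; adjusted p = 0.984), the night value with the opposite sign under quantile normalization.

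Hes5 (chromosome 4, 154960626 to 154962372), a repressor of neural stem cells and astrocytes, stood at 2.05, 3.6 and 2.76 FPKM in Day DKO libraries, against 3.24, 3.65 and 2.83 FPKM in Day WT libraries. At night Hes5 had 3.36, 4.72 and 3.69 FPKM in DKO libraries, against 2.34, 4.16 and 3.46 FPKM in WT libraries. Libraries of 1 group differed by as much as the groups did. The differences were -0.17 by day (-0.54 to 0.19; limma adjusted p = 0.642) and 0.20 at night (-0.16 to 0.57; adjusted p = 0.769). With 1 library left out the Hes5 difference was -0.32 (without Day DKO replicate 2) to -0.023 (without Day DKO replicate 1) by day and 0.028 (without Night WT replicate 1) to 0.34 (without Night WT replicate 2) at night. Hey1 (chromosome 3, 8663359 to 8667038), the target with the highest level, stood at 10.3, 11.8 and 10.9 FPKM in Day DKO libraries, against 7.79, 9.86 and 11.6 FPKM in Day WT libraries. Night libraries had 12.6, 10.7 and 11.5 FPKM of Hey1 in DKO, against 10.9, 12.2 and 10.1 FPKM in WT. Its groups overlapped at both times, and Day WT replicate 1 was the lowest of the 12 libraries. The differences were 0.17 by day (-0.07 to 0.41; limma adjusted p = 0.453) and 0.06 at night (-0.18 to 0.30; adjusted p = 0.920). With 1 library left out the Hey1 difference was 0.035 (without Day WT replicate 1) to 0.29 (without Day WT replicate 3) by day and 0.0037 (without Night WT replicate 3) to 0.13 (without Night WT replicate 2) at night.

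**Figure D2:**
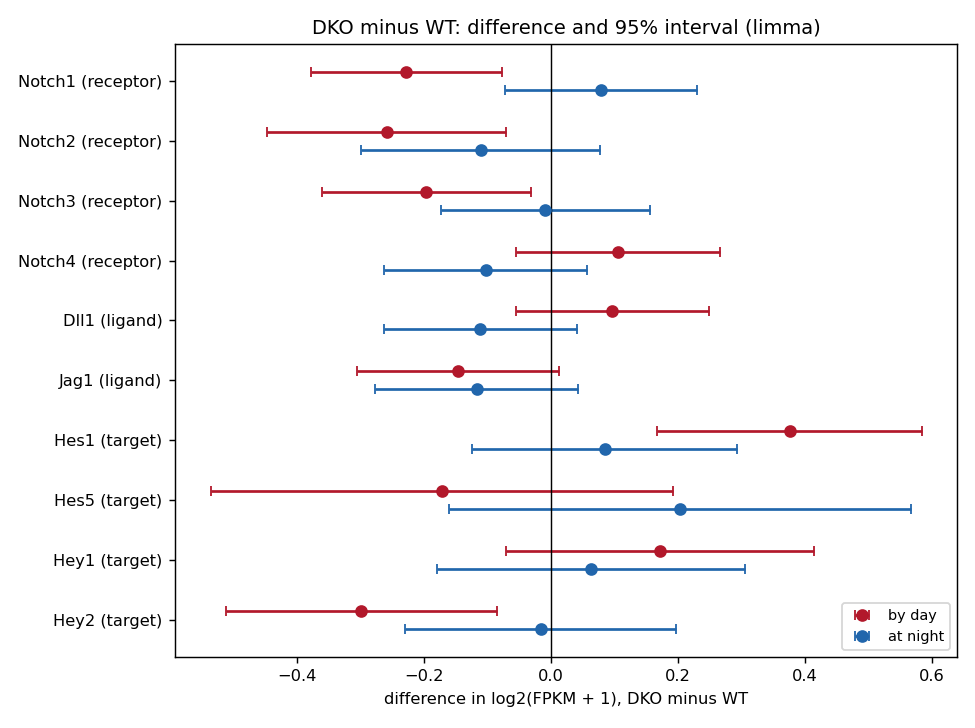
Difference in log2(FPKM + 1), DKO minus WT (horizontal axis), of each Notch gene by day and at night; points are limma estimates and whiskers their 95% intervals, not adjusted for the number of genes. By day 4 intervals lie below 0 and that of Hes1 above it, and at night all 10 intervals include 0.

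Averaged over both times, none of the 10 genes was called, where 1.88% of all genes (238) were. That count was 80 to 126 with any 1 of 7 libraries left out (Day DKO replicates 2 and 3, Day WT replicate 2, Night DKO replicates 2 and 3, Night WT replicates 1 and 3). Hes1 was higher in DKO by 0.23 (0.08 to 0.38; limma adjusted p = 0.109). Notch2 differed by -0.18 (-0.32 to -0.05; limma adjusted p = 0.15), Jag1 by -0.13 (-0.24 to -0.02; limma adjusted p = 0.223) and Hey2 by -0.16 (-0.31 to -0.01; limma adjusted p = 0.288). These 4 had an unadjusted limma p under 0.05, as did 16.2% of all genes (9.68% higher and 6.52% lower). Hes1 was 0.21, Notch2 -0.16 and Jag1 -0.12 without Night WT replicate 1, none of them called. Averages of Notch4 and Dll1 were within 0.01 of 0 and took either sign under other scalings. The medians by role were -0.09 for the receptors, -0.07 for the ligands and 0.07 for the targets, against 0.01 for all genes.

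Cell type markers differed between the same groups of libraries, and in bulk tissue fewer cells of a type and less RNA per cell cannot be told apart. Of 10 smooth muscle and pericyte markers, 4 were called lower by limma in Day DKO (Acta2, Tagln, Myh11 and Myl9), where 1.18% of all genes were called in either direction. At night 0 were called, where 0.0236% of all genes were, and 7 were lower at an unadjusted limma p under 0.05, against 5.4% of all genes. Their summed level was 46.4 to 55 FPKM in Day DKO and 53.9 to 78.9 FPKM in Day WT, and 51.1 to 52.8 FPKM in Night DKO and 65.2 to 79.8 FPKM in Night WT. The 10 endothelial markers summed to 37.3 to 40.2 FPKM in Day DKO and 42.1 to 49.3 FPKM in Day WT, and to 30.8 to 39.0 FPKM in Night DKO and 35.5 to 41.8 FPKM in Night WT, with 0 called by limma at either time (6 lower and 1 higher at an unadjusted p under 0.05 by day, where 5.12% of all genes were lower and 11.9% higher, and 3 lower at night, where 5.4% of all genes were). The smooth muscle and pericyte sums of DKO and WT overlapped by day through 1 library of each and were separated at night, and the endothelial sums were separated by day and overlapped at night.

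Astrocyte markers, from cells that also make Notch2, Hes5 and Hes1, summed to 478 to 538 FPKM in Day DKO and 416 to 441 FPKM in Day WT, and to 456 to 545 FPKM in Night DKO and 430 to 476 FPKM in Night WT. They were higher in Day DKO without overlap. By day 0 of 10 were called by limma, with 4 higher and 1 lower at an unadjusted p under 0.05, against 11.9% and 5.12% of all genes. Gfap was called higher in the averaged comparison, where 1% of all genes were. The 10 stem and progenitor markers, of which 7 passed the filter, summed to 36.9 to 41.4 FPKM in Day DKO and 35.4 to 40.1 FPKM in Day WT, and to 36.9 to 41.7 FPKM in Night DKO and 35.8 to 40.3 FPKM in Night WT, and overlapped at both times. Choroid plexus markers ran from 61.7 FPKM in Day DKO replicate 2 to 1775 FPKM in Day DKO, against 1103 to 2740 FPKM in Day WT, and 1886 to 2985 FPKM in Night DKO, against 1343 to 3113 FPKM in Night WT. Leptomeningeal markers summed to 30.0 to 36.5 FPKM in Day DKO and 47.1 to 64.0 FPKM in Day WT, and to 41.4 to 47.7 FPKM in Night DKO and 54.0 to 66.3 FPKM in Night WT, lower in DKO without overlap. Of the choroid plexus markers 0 of 11 were called by limma by day (9 lower at an unadjusted p under 0.05, against 5.12% of all genes). Of the leptomeningeal markers 2 of 8 were called by day, both lower, where 1.18% of all genes were called in either direction. By day 7 of the 8 were lower at an unadjusted limma p under 0.05, against 5.12% of all genes. Among the remaining lists, 1 of 5 microglia markers was called higher by day and 1 of 5 blood genes lower. At an unadjusted limma p under 0.05, 3 of 5 and 4 of 5 were so, against 11.9% and 5.12% of all genes. Microglia markers summed to 74.7 to 82.1 FPKM in Day DKO and 53.2 to 59.5 FPKM in Day WT. Blood genes summed to 90.5 to 110 FPKM in Day DKO and 111 to 153 FPKM in Day WT. By day 0 of 6 oligodendrocyte and 0 of 8 hippocampal neuron markers were called (1 and 0 at an unadjusted limma p under 0.05, against 17% of all genes). At night 0 of these markers were called by limma, where 0.0236% of all genes were. At an unadjusted limma p under 0.05, 5 of 6 oligodendrocyte, 4 of 5 blood and 4 of 8 leptomeningeal markers were lower at night, against 5.4% of all genes. There 3 of 5 microglia markers were higher, against 3.78% of all genes. In the averaged comparison limma called 4 of 8 leptomeningeal, 4 of 10 smooth muscle and pericyte, 3 of 5 blood and 1 of 6 oligodendrocyte markers lower and 2 of 5 microglia markers higher. There 0.875% of all genes were called lower and 1% higher. No listed marker of these types was at 0 in all libraries. The part of any cell type in the differences of the Notch genes was not tested. Without Day DKO replicate 2, the library poorest in choroid plexus markers, the day differences were -0.25 for Notch1, -0.20 for Notch2, -0.20 for Notch3, 0.26 for Hes1 and -0.26 for Hey2, with limma adjusted p of 0.225 to 0.398.

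Between night and day, none of the 10 genes was called in DKO, where 0.299% of all genes (38) were, or in WT, where 1.67% (212) were. Without Night DKO replicate 2 or 3 or Day DKO replicate 2 or 3 the count in DKO was 19 to 22. The count in WT was 1 to 132 with any 1 of 9 libraries left out (the 3 of Night DKO, the 3 of Night WT, Day DKO replicate 3, Day WT replicates 1 and 2). In DKO, Notch3, Hes5 and Hey2 were higher at night at an unadjusted limma p under 0.05, as were 10.3% of all genes, with 15.1% passing in either direction. Notch3 averaged 1.32 ± 0.106 FPKM in Night DKO and 1.01 ± 0.0353 FPKM in Day DKO (SD, n = 3 each), a difference of 0.21 (0.05 to 0.38; limma adjusted p = 0.229). Hey2 averaged 1.20 ± 0.168 FPKM in Night DKO and 0.856 ± 0.144 FPKM in Day DKO, a difference of 0.24 (0.03 to 0.46; limma adjusted p = 0.274). All night libraries of DKO lay above all day libraries for both genes, a pattern that 12.9% of all genes showed, and none of the 10 showed the reverse, which 6.44% of all genes did. Choroid plexus markers stood at 1886 to 2985 FPKM in Night DKO and 61.7 to 1775 FPKM in Day DKO. Leptomeningeal markers stood at 41.4 to 47.7 FPKM and 30.0 to 36.5 FPKM, and blood genes at 116 to 159 FPKM and 90.5 to 110 FPKM. All these sums were separated in the same direction, with 9 of 11, 4 of 8 and 3 of 5 higher at an unadjusted limma p under 0.05 and 0 called. Smooth muscle and pericyte markers, at 51.1 to 52.8 FPKM in Night DKO and 46.4 to 55 FPKM in Day DKO, overlapped. So did endothelial markers, at 30.8 to 39.0 FPKM and 37.3 to 40.2 FPKM. In both lists 4 of 10 genes had positive estimates, against 58.7% of all genes. The sums of the other cell types overlapped too. The part of any cell type in the differences of Notch3 and Hey2 was not tested. Hes5 averaged 3.93 ± 0.707 FPKM in Night DKO and 2.80 ± 0.774 FPKM in Day DKO, a difference of 0.38 (0.02 to 0.75; limma adjusted p = 0.302), and its libraries overlapped. The remaining 7 genes differed by no more than 0.10 in size between night and day in DKO.

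In WT, Notch1 was lower at night, and Notch4 and Hes1 were higher, without overlap and at an unadjusted limma p under 0.05. Such a p was found for 22.3% of all genes, 2.45% lower and 19.8% higher, and separated libraries for 4.37% and 24.3%. Notch1 averaged 2.54 ± 0.152 FPKM in Night WT and 3.09 ± 0.0872 FPKM in Day WT (SD, n = 3 each), a difference of -0.21 (-0.36 to -0.06; limma adjusted p = 0.114). Notch4 averaged 0.714 ± 0.0603 FPKM in Night WT and 0.516 ± 0.0427 FPKM in Day WT, a difference of 0.18 (0.02 to 0.34; limma adjusted p = 0.185). Hes1 averaged 3.51 ± 0.258 FPKM in Night WT and 2.83 ± 0.237 FPKM in Day WT, a difference of 0.23 (0.03 to 0.44; limma adjusted p = 0.180). Without Night WT replicate 1 the same differences were -0.24 for Notch1, 0.16 for Notch4 and 0.28 for Hes1, again not called. The other WT differences were -0.15 for Notch2, 0.15 for Dll1, 0.18 for Hey1, 0.05 for Jag1 and -0.04 for Hey2, and those of Notch3 (0.02) and Hes5 (0.01) took the opposite sign under both other scalings. Of the 10 genes 7 had a positive WT difference, as did 72.1% of all genes, whose median was 0.07. Under quantile normalization and median-of-ratios scaling 5 of the 10 had one. The median of all genes was then 0.001 and 0.006, so the 72.1% is no background for these 5. Summed endothelial markers were lower in Night WT (35.5 to 41.8 FPKM) than in Day WT (42.1 to 49.3 FPKM) without overlap. Single endothelial markers went both ways, with 3 of 10 estimates positive and 7 negative, and limma called 1 higher and 1 lower. Higher without overlap were blood genes (171 to 285 against 111 to 153 FPKM) and oligodendrocyte markers (384 to 447 against 343 to 374 FPKM). Microglia markers were also higher without overlap (60.6 to 66.1 against 53.2 to 59.5 FPKM). The sums of the other cell types overlapped. Limma also called 1 of 5 blood genes higher and 1 of 10 astrocyte markers lower, where 1.67% of all genes were called in either direction. The part of any cell type in the WT differences was not tested.

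**Figure D3:**
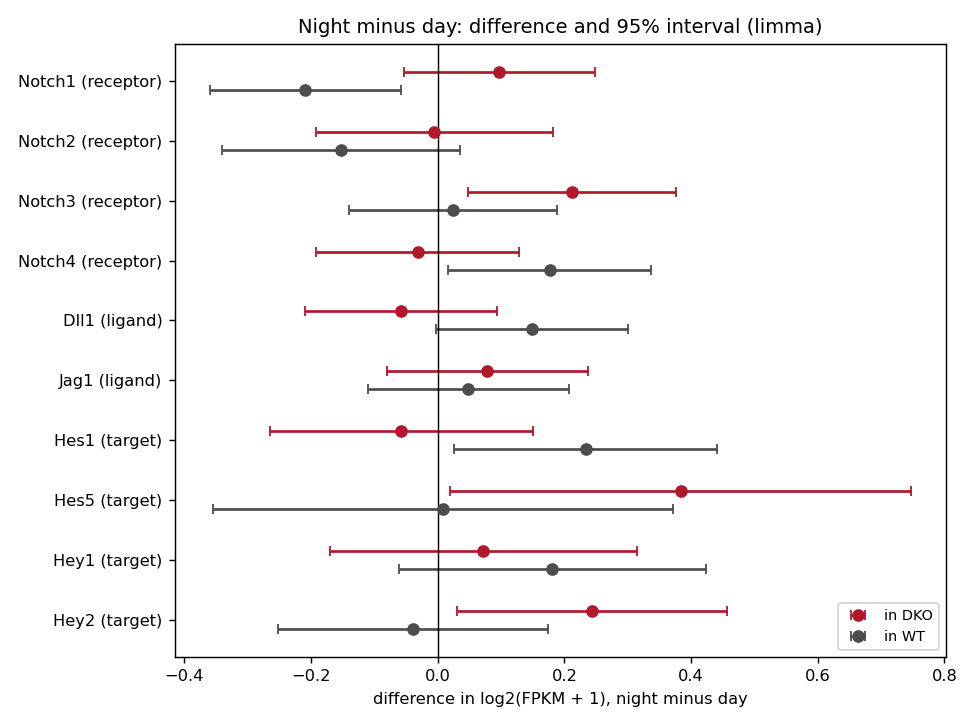
Difference in log2(FPKM + 1), night minus day (horizontal axis), of each Notch gene in DKO and in WT; points are limma estimates and whiskers their 95% intervals, not adjusted for the number of genes. The intervals of Notch3, Hes5 and Hey2 lie above 0 in DKO, and in WT those of Notch4 and Hes1 lie above 0 and that of Notch1 below it.

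The interaction asked whether the genotype difference changed with time. No gene of the 12689 tested was called (0%) by limma, or 1 without Day WT replicate 3, with 8.66% at an unadjusted p under 0.05 (1.79% higher and 6.87% lower). Of the 10 genes, Notch1 had the smallest p, with a change of 0.31 between the day and the night difference (0.09 to 0.52; limma adjusted p = 0.518), or 0.34 without Night WT replicate 1. The estimates for Hes1 (-0.29, -0.59 to 0.00), Hey2 (0.28, -0.02 to 0.58), Dll1 (-0.21, -0.42 to 0.01), Notch4 (-0.21, -0.44 to 0.02), Hes5 (0.37, -0.14 to 0.89), Notch3 (0.19, -0.05 to 0.42), Notch2 (0.15, -0.12 to 0.41), Hey1 (-0.11, -0.45 to 0.23) and Jag1 (0.03, -0.20 to 0.25) all had intervals that included 0. A genotype difference that appears by day and not at night was therefore not shown to differ between the times for any of the 10 genes. Averaged over genotypes, 6.07% of all genes (770) were called between night and day and none of the 10. The count was 243 to 487 with any 1 of 8 libraries left out (the 3 of Night DKO, the 3 of Night WT, Day DKO replicate 1, Day WT replicate 1). There Notch3 alone of them had an unadjusted limma p under 0.05, as did 26.2% of all genes, at 0.12 (0.00 to 0.23; limma adjusted p = 0.185), and all 4 target genes had positive estimates, from 0.09 for Hes1 to 0.20 for Hes5, as did 69.4% of all genes.

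The rest of the pathway was read from a list of 52 further Notch genes, of which 48 passed the filter (Hes2, Hes3, Hes7 and Heyl did not). Of the 48, 0 were called by limma between DKO and WT by day (6 higher and 0 lower at an unadjusted p under 0.05, against 11.9% and 5.12% of all genes) and 0 at night (2 higher and 2 lower, against 3.78% and 5.4%), and 1 was called higher and 0 lower in the average, where 1% of all genes were called higher and 0.875% lower. The called gene was Numbl, which encodes a relative of NUMB, an endocytic adaptor that holds Notch back. Numbl stood at 12.4, 15.4 and 15.2 FPKM in Day DKO libraries, against 11.3, 11.9 and 11.9 FPKM in Day WT libraries. At night Numbl stood at 13.6, 13.3 and 13.4 FPKM in DKO libraries, against 10.3, 12 and 10.9 FPKM in WT libraries. All DKO libraries lay above all WT libraries of their time, a pattern that 14.3% of all genes showed by day and 5.73% at night. Numbl rose in DKO by 0.26 averaged over the times (0.15 to 0.38; limma adjusted p = 0.0290), with 0.27 by day (adjusted p = 0.112) and 0.26 at night (adjusted p = 0.328). The call was lost without each of 8 libraries in turn (Day DKO replicates 2 and 3, Day WT replicates 1 and 2, Night DKO replicates 2 and 3, Night WT replicates 1 and 3), with values of 0.24 to 0.27 and a limma adjusted p of 0.0592 to 0.0850, and without the filter on low values (adjusted p = 0.0632).

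Other genes of the list with the smallest p did not pass. By day these were Dner, a transmembrane Notch-binding protein of neurons (0.17; limma adjusted p = 0.204), and Fbxw7, a ubiquitin ligase subunit that marks the Notch intracellular domain for destruction (0.16; limma adjusted p = 0.233). At night they were Snw1, a nuclear cofactor of RBPJ (-0.15), and Pofut1, which adds O-fucose to Notch (-0.18), both at a limma adjusted p of 0.458. In the average they were Dtx1, a Deltex ubiquitin ligase (0.15; limma adjusted p = 0.140), and Pofut1 (-0.12; limma adjusted p = 0.258). By role, all 8 genes of trafficking and turnover had positive averages with a median of 0.05, 1 of them called, and 2 of the 8 proteases had positive averages with a median of -0.06, 0 called. In the other roles, positive averages were found for 4 of 6 ligands, 3 of 4 genes of ligand handling, 3 of 6 of glycosylation and 4 of 8 of the nuclear complex. They were also found for 3 of 5 corepressors and 3 of 3 other targets tested, with 0 called in any of these roles. Positive averages were found for 57.4% of all genes, whose median was 0.01.

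**Figure D4:**
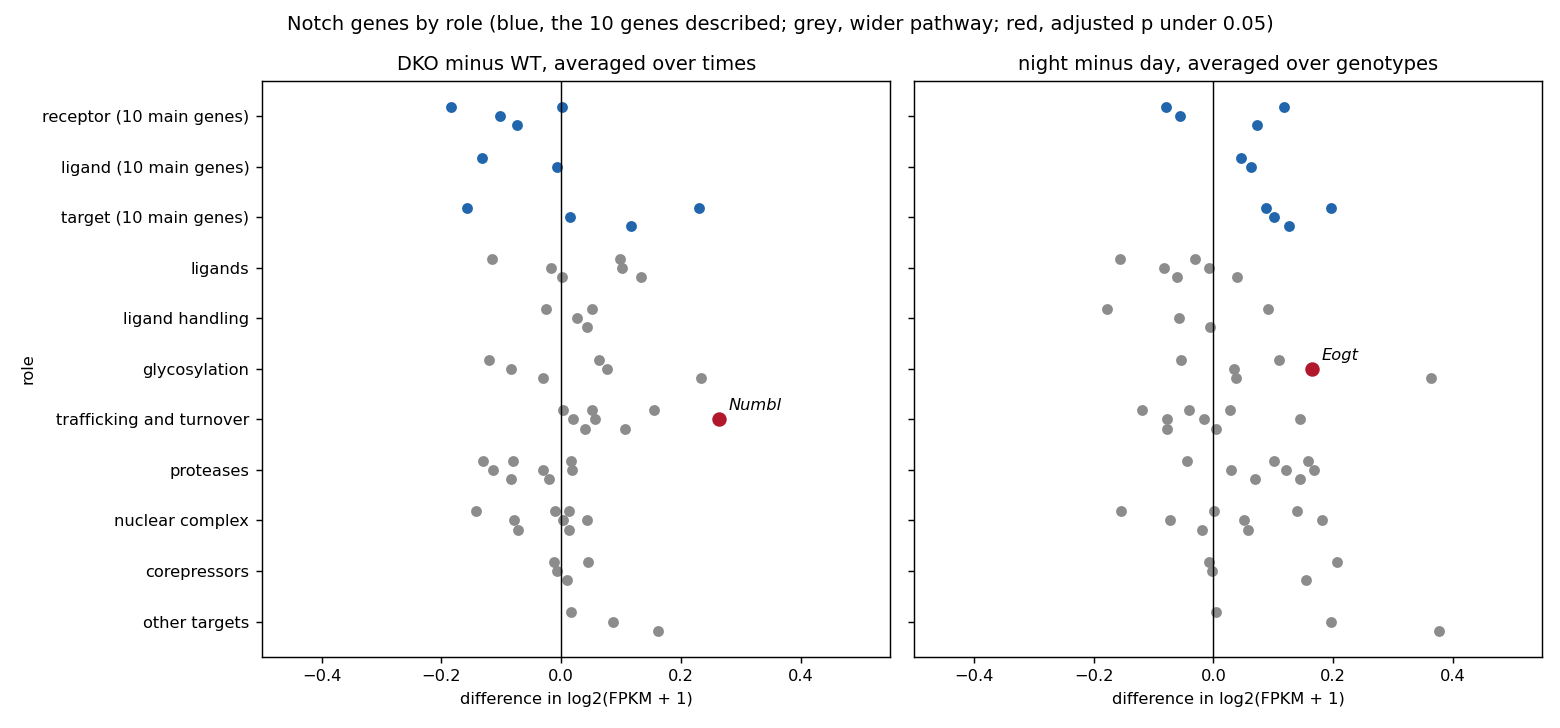
Differences in log2(FPKM + 1) (horizontal axes) of the 10 Notch genes, in blue, and of further pathway genes, in grey or, where called, in red, by role (vertical axis), for DKO minus WT averaged over times and for night minus day averaged over genotypes. Numbl stands highest at 0.26 in the genotype panel, and Eogt, at 0.17, is marked as called in the time panel.

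Between night and day, averaged over genotypes, 1 of the 48 genes was called higher and 1 lower, with 12 higher and 5 lower at an unadjusted limma p under 0.05, where 21.7% of all genes were higher and 4.48% lower and 5.19% were called higher and 0.875% lower. Eogt, an enzyme that adds O-GlcNAc to the extracellular part of Notch, stood at 2.15, 2.44 and 2.09 FPKM in Night DKO, against 1.68, 1.83 and 1.85 FPKM in Day DKO. In WT libraries Eogt stood at 2.25, 2.26 and 2.43 FPKM at night, against 2.08, 2.03 and 2.03 FPKM by day. Night libraries lay above day libraries in both genotypes, a pattern that 12.9% of all genes showed in DKO and 24.3% in WT. Eogt rose at night by 0.17 (0.07 to 0.26, limma adjusted p = 0.0419). Its call was lost without each of the 12 libraries in turn (values of 0.14 to 0.18, limma adjusted p of 0.0514 to 0.0886). It was also lost under quantile normalization, median-of-ratios scaling, the replicate block and no filter on low values (lowest value 0.12, limma adjusted p of 0.0516 to 0.152).

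Hes6, a Hes relative that favours neuronal differentiation, did not pass the test. It averaged 4.35 ± 0.758 FPKM in Night DKO and 2.88 ± 0.684 FPKM in Day DKO (SD, n = 3 each), and 3.73 ± 0.555 FPKM in Night WT and 2.89 ± 0.627 FPKM in Day WT. The averaged night difference of Hes6 was 0.38 (0.15 to 0.61, limma adjusted p = 0.0524). It was called without Day WT replicate 2 or Day DKO replicate 1 (limma adjusted p of 0.0405 to 0.0475). A filter of 1 FPKM in 6 libraries and the replicate block also called it (limma adjusted p of 0.00632 to 0.0468). In the remaining settings it was not called, with a limma adjusted p of up to 0.104. In WT the smallest p were those of the histone deacetylase gene Hdac2 (0.29; limma adjusted p = 0.0576), Snw1 (0.22; adjusted p = 0.0712) and the gamma-secretase subunit gene Aph1b (0.23; adjusted p = 0.0907), with 0 of 48 called and 8 higher and 3 lower at an unadjusted p under 0.05, against 19.8% and 2.45% of all genes. In DKO they were those of Eogt (0.21; limma adjusted p = 0.152), Maml3, a Mastermind coactivator (-0.21; adjusted p = 0.177), and Hes6 (0.47; adjusted p = 0.189), with 0 called and 5 higher and 3 lower, against 10.3% and 4.79% of all genes. In the interaction 0 of 48 were called and 4 had an unadjusted limma p under 0.05, as did 8.66% of all genes, led by Hdac2 (-0.26), Furin, the protease that matures Notch (0.22), and Fbxw7 (-0.20), at limma adjusted p of 0.561 to 0.563.

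**Figure D5:**
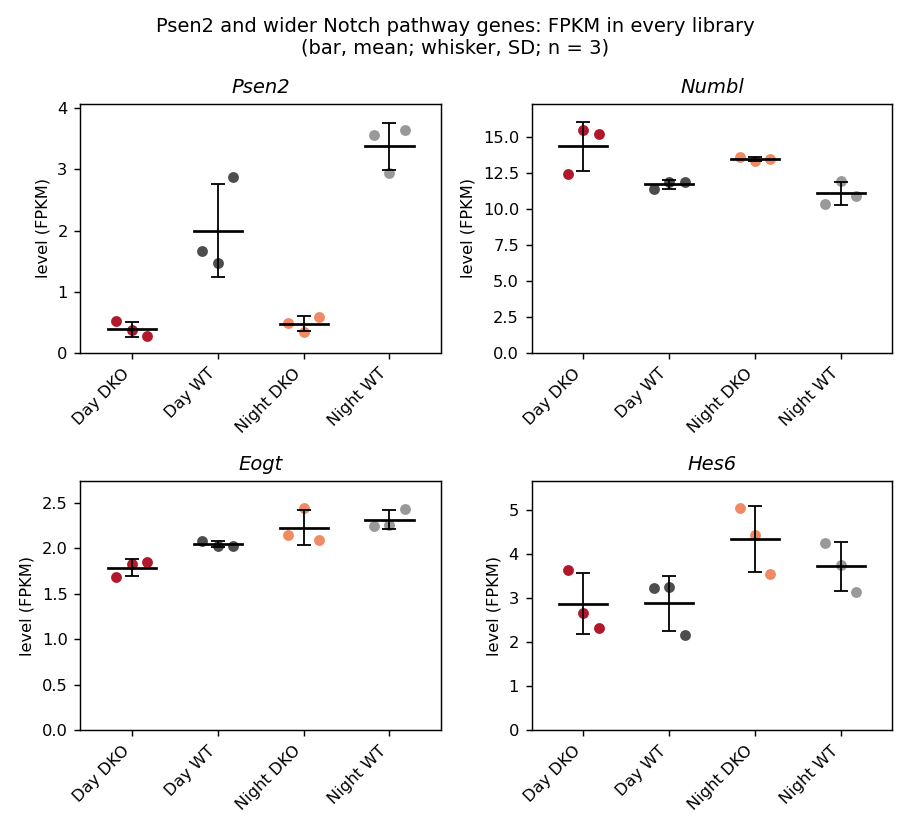
FPKM (vertical axes, each from 0) of Psen2 and 3 further pathway genes in the 3 libraries of Day DKO, Day WT, Night DKO and Night WT; points are libraries, bars means and whiskers SD. Psen2 averages 0.391 FPKM in Day DKO and 0.477 FPKM in Night DKO, Numbl lies higher in DKO at both times, and Eogt and Hes6 have their higher means at night.

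Genes whose pattern over the 12 libraries was most like that of Hes1, Notch2 and Jag1, the 3 genes with the smallest p in the averaged genotype comparison, were found by the root mean square difference of z-scored log2(FPKM + 1) among 11089 genes, where 0 means the same pattern. Closest to Hes1 were Vbp1 (0.370), which encodes a prefoldin subunit, Dhx33 (0.375), an RNA helicase gene, and Porcn (0.392), which encodes the enzyme that acylates Wnt proteins, against a median of 1.20 over all genes compared. Closest to Notch2 were Hspg2 (0.383), the gene of the basement membrane proteoglycan perlecan, Itpkb (0.388), an inositol trisphosphate kinase gene, and Cdk5rap2 (0.405), a centrosome gene, against a median of 1.48. Closest to Jag1 were Stom (0.327), the stomatin gene, Vim (0.342), the gene of the intermediate filament vimentin, and Smo (0.345), the Hedgehog signal transducer gene, against a median of 1.30. Of these 9 genes only Hspg2 was called between DKO and WT, by day (-0.52; limma adjusted p = 0.0330), and the 9 were picked out of many genes on the same libraries.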

How the data were processed

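The authors deposited 1 table per library with 1 value per gene. The deposited values were taken to be FPKM because of how they behave, as headers give a sample name and no unit; across 1067 genes of low level the lowest value above 0 fell with transcript length (Spearman's rho = -0.552, genes not being independent replicates). Per the labels' protocols, ribosomal RNA was removed from total RNA and stranded libraries were made. Build GRCm38.p6 is named in the submitters' processing notes, and aligner, counter and annotation are not stated there. Without counts the depth is unknown, and intervals for counting error are left out. The symbols of 27 genes that had become dates were restored from gene IDs. Of the IDs, 21727 matched the RefSeq table of the same build, which gave coordinates. Promoter windows came from a separate set of sequences on that build.

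Values were taken as log2(FPKM + 1), a scale that understates differences of genes near or under 1 FPKM. Genes with at least 0.5 FPKM in at least 3 libraries were fitted with limma 3.58.1 in R 4.3.3, with 1 mean per group over all 12 libraries and an intensity trend, and p-values were 2-sided and adjusted by Benjamini-Hochberg over the 12689 genes tested. The fit was checked on simulated data with planted changes larger than the differences reported for the 10 genes, so the check does not speak to differences of their size. Groups came from the genotype and time labels, in 7 comparisons that share libraries. The 10 genes, the further pathway and marker lists, the tests and the alternatives were chosen with earlier results of these data known. Of the further pathway list, called genes and the 3 with the smallest p per comparison are named; results for 2 genes are not reported here. The alternatives were pseudocounts of 0.1 and 0.5, no filter, 1 FPKM in 6 libraries, quantile normalization, median-of-ratios scaling, no intensity trend, a replicate block, array quality weights, fitting just the groups of a comparison, and each library left out. Protein sequences were not used here.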

Additional observations from a re-analysis of the deposited data

How the results depend on the processing

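No setting called any of the 10 Notch genes in any comparison, with 1 exception, Hes1 by day without Day DKO replicate 1 (range 0 to 1 gene). Of 1496 refitted differences of the 10 genes, 48 in 14 results changed sign; the values reported for those 14 were 0.109 (Hey1, interaction) or less in size. Under quantile normalization these were Notch3 (0.0055) and Hey2 (0.0011) at night, Notch3 (-0.0072) and Hes5 (-0.056) between times in WT, and Dll1 (0.016) in the genotype average. Median-of-ratios scaling did so for Notch3 (-0.026) and Hes5 (-0.058) between times in WT and Notch4 (-0.0021) in the average, and array quality weights for Hes5 (-0.052) in WT and Notch4 (-0.0018) and Dll1 (0.0056) in the average. With 1 library left out the ranges were, at night, Notch3 -0.082 to 0.044 and Hey2 -0.074 to 0.050; in WT, Notch3 -0.029 to 0.097, Jag1 -0.016 to 0.089, Hes5 -0.13 to 0.18 and Hey2 -0.12 to 0.044; in DKO, Notch2 -0.071 to 0.039, Notch4 -0.091 to 0.014 and Hes1 -0.14 to 0.054; for the interaction, Jag1 -0.011 to 0.094 and Hey1 -0.23 to 0.028; and in the genotype average, Notch4 -0.024 to 0.031, Dll1 -0.037 to 0.025 and Hes5 -0.072 to 0.090.
Of the further pathway genes, 1 was called by day without Day DKO replicate 1 (Numbl; range 0 to 1), 1 in WT with array quality weights (Hdac2) and 1 in DKO with the replicate block (Hes6). In the genotype average 0 were called without the filter, and 0 to 1 with a library left out. In the time average 0 were called without the filter, 4 under quantile normalization, 4 with array quality weights, 1 without the intensity trend and 0 to 3 with a library left out. In the time average the replicate block called 3 (Aph1b, Hes6 and Lfng) against 2 without it; it changed no call of the 10 genes. Deviations of same-numbered libraries correlated at -0.116 to 0.178. Of 24 library comparisons, each with 3 libraries to choose from, 13 were best with the same number, and 6 of 6 for Night and Day DKO. The labels state no pairing and the main fit has none. Whether the numbers pair libraries was not settled, in DKO above all. Over all genes, settings other than a left-out library called 26 to 178 genes by day, 2 to 15 at night, 24 to 339 in the genotype average, 23 to 418 in WT, 21 to 65 in DKO and 490 to 894 in the time average. The causes were not tested. With 3 libraries per group and unknown depth, the 95% intervals of the day differences were as narrow as 0.30 (Notch1) and as wide as 0.73 (Hes5).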

Other observations

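The partners of the presenilins in gamma-secretase, chosen after their values were seen, were not called between DKO and WT. Averaged over both times the differences in log2(FPKM + 1) were -0.11 for Ncstn, the substrate-binding nicastrin gene (limma adjusted p = 0.324), -0.13 for Psenen (adjusted p = 0.314), -0.08 for Aph1a (adjusted p = 0.521), 0.02 for Aph1b (adjusted p = 0.896) and -0.08 for Aph1c (adjusted p = 0.523). Adam10, the gene of the protease that makes the first cut in a bound Notch receptor, differed by 0.02 (limma adjusted p = 0.889), and Rbpj, the gene of the DNA-binding partner, by 0.00 (limma adjusted p = 0.980).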
